A study of Mus musculus with 8 samples.

Results

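Serotonin receptor genes were followed in whole mouse cortex, in animals whose label is Mef2c heterozygous and in animals whose label is wild type. The 10 genes are Htr1a, Htr1b, Htr1d, Htr1f, Htr2a, Htr2c, Htr4, Htr5a, Htr6 and Htr7, out of 22000 gene rows counted in the series. They were listed by name, and a gene with fewer than 10 reads in every library was to be dropped, which removed 0 of them. Polyadenylated RNA was sequenced from 8 mice, with 4 mice per genotype label, 2 males and 2 females in each, and 1 library per mouse. The sources used here give neither age nor strain, and do not name the part of Mef2c that was altered. No Cre driver or transgene is named in the labels of either group. The animal numbers fall into a higher and a lower run, each with 2 mice per genotype, and the labels do not say what these runs stand for. The family was chosen by the known genotype difference in the counts of Htr7, so that difference is given below as a description.

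Serotonin is released in the cortex by axons whose cell bodies lie in the raphe nuclei of the brainstem, and the responding cells read it through many receptor types. All receptors of the list couple to G proteins. The 5-HT1 receptors and 5-HT5A act mainly through Gi and lower cyclic AMP, the 5-HT2 receptors act through Gq and phospholipase C, and 5-HT4, 5-HT6 and 5-HT7 act through Gs and raise cyclic AMP. The 5-HT3 receptors, which are ion channels, are not among the 10 genes.

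Mef2c counts went against the direction that the labels would give for a lost transcript. Its level was 1304 ± 73.2 CPM in the libraries labelled heterozygous and 995 ± 41.3 CPM in those labelled wild type (SD, n = 4 each; CPM are counts relative to the scaled library size). Reads of both alleles fall into 1 count, so all directions below refer to the libraries as labelled. Library totals lay between 16092773 and 17841377 reads, and RNA integrity numbers between 8.6 and 9. The 10 receptor genes together took between 0.0145% and 0.0168% of a library. Heterozygous replicate 4, labelled female, held 72 reads of 4 Y-linked genes, against 0 to 3 in the other female libraries and 2150 to 2564 in the male ones. Markers of cortical neurons were abundant: Slc17a7, the vesicular glutamate transporter of cortical excitatory cells, had 1932 ± 95.8 CPM in the libraries labelled heterozygous and 1854 ± 70.3 CPM in those labelled wild type (SD, n = 4 each). Of the 8 raphe neuron markers, 3 had 0 reads in the 8 libraries together, among them the transcription factor gene Fev. The serotonin transporter gene Slc6a4 had 4 and Lmx1b 25 reads. The others were detected, with 216 reads for Tph2, 516 for Gata2 and 1208 for Slc18a2. The list summed to 12.5 to 18.9 CPM in the libraries labelled heterozygous and 13.4 to 15.8 CPM in those labelled wild type.

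The start regions of Htr7 and Htr1b are shown because these genes had the lowest and the highest genotype log2 fold change of the family. Each is the RefSeq window from 250 bases before to 50 bases after the annotated start site in GRCm38.p6, written 5′ to 3′ on the gene's own strand. Htr7 is read from the minus strand at chr19:36057311-36057610, and Htr1b from the minus strand at chr9:81633783-81634082. Capitals mark TGACG, here read on the opposite strand, the core of the element bound by cyclic AMP response factors.
Htr7: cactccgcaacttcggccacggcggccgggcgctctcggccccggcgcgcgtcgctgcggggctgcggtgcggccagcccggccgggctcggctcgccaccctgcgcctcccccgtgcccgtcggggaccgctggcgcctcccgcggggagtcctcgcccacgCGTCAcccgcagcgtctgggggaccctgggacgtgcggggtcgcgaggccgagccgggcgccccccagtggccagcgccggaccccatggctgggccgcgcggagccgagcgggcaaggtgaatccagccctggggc
Htr1b: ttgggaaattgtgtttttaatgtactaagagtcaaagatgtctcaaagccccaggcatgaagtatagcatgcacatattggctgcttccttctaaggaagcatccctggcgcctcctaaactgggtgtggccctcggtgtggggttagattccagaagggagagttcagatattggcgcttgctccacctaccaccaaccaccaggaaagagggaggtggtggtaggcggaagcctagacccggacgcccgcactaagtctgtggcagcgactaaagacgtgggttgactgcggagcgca
The 300 bases of Htr7 held 81% G and C, against 53.3% for Htr1b and a median of 52.7% over 32851 such windows, of which 0.74% were at least as rich as Htr7. The table gave 11 windows for 9 of the 10 genes, and the window of Htr7 was the richest of them. TGACG, read on both strands, occurred in the Htr7 window at position -87 from the start site and in no other window of the family, while 20.8% of all windows hold it. The full palindrome TGACGTCA, which contains TGACG on both strands and is held by 1.79% of all windows, was in none of the 11. Neither the strict MEF2 motif, held by 0.557% of all windows, nor a looser form of it, held by 3.19%, was found in these windows. The GC box GGGCGG occurred in at least 1 window of Htr1a, Htr1d, Htr1f, Htr2a and Htr6, but not in those of Htr7, Htr1b, Htr2c and Htr5a, and 35.7% of all windows hold it. Such matches describe letters in a window and are not evidence of binding.

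Per length, Htr2a was the most abundant receptor mRNA and Htr1d the least. Levels per kb of merged exons (GENCODE release M21) averaged over the 8 libraries 8.15 ± 0.876 CPM per kb for Htr2a, 5.50 ± 0.370 for Htr5a and 5.34 ± 0.850 for Htr1a (SD, n = 8). Htr1b followed with 3.49 ± 0.555 CPM per kb, Htr7 with 3.27 ± 0.868, Htr2c with 2.29 ± 0.535 and Htr6 with 2.01 ± 0.295 (SD, n = 8). Htr1f stood at 1.00 ± 0.258 CPM per kb, Htr4 at 0.160 ± 0.0588 and Htr1d at 0.103 ± 0.0678 (SD, n = 8). The ranges of Htr2a and Htr5a did not overlap, nor did those of Htr6 and Htr1f or of Htr1f and Htr4. All other neighbours in this order overlapped. The order depends on the lengths used, since Htr2c had 21.4 CPM over 9328 exon bases and Htr7 11.1 CPM over 3399. The annotation used for counting is not stated in the sources used here. Htr5a and Htr1a changed places between the labels, with Htr5a at 5.51 ± 0.281 CPM per kb and Htr1a at 4.87 ± 0.701 in the libraries labelled heterozygous, against 5.50 ± 0.490 for Htr5a and 5.81 ± 0.776 for Htr1a in those labelled wild type (SD, n = 4 each), with overlapping ranges in each.

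The place of Htr7 in this order also differed between the genotype labels. In the libraries labelled heterozygous it ranked at position 5 with 2.57 ± 0.579 CPM per kb, below Htr1b at 3.91 ± 0.385, while in those labelled wild type it ranked at position 4 with 3.98 ± 0.322, above Htr1b at 3.07 ± 0.309 (SD, n = 4 each). The ratio of Htr7 to Htr1b per kb was 0.491, 0.590, 0.609 and 0.999 in heterozygous replicates 1 to 4, against 1.62, 1.16, 1.18 and 1.27 in wild type replicates 1 to 4. Heterozygous replicate 4 thus lay nearest to the wild type libraries, and the groups did not overlap. This ratio sets the gene that chose the family against the member with the highest genotype log2 fold change. The change of rank and the lack of overlap are therefore no separate result.

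**Figure D1:**
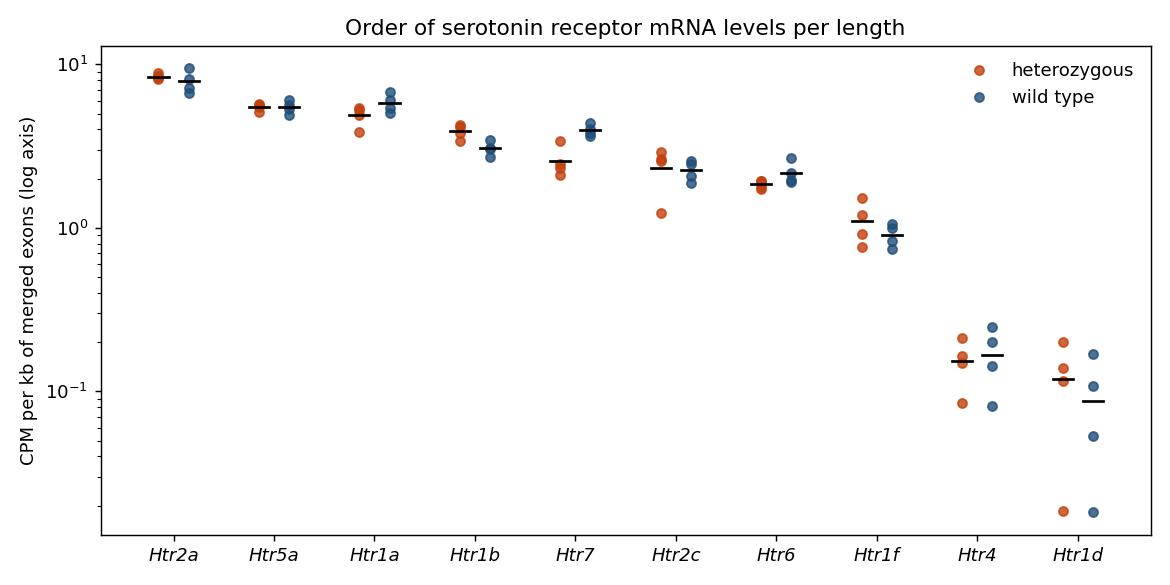
Level of each serotonin receptor gene in CPM per kb of merged exons (log axis), 1 point per library, with libraries labelled heterozygous left (orange) and wild type right (blue) and the group mean as a bar. Htr2a is highest at 8.15 CPM per kb over all libraries, and Htr4 and Htr1d lie far below the rest at 0.160 and 0.103.

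The comparison of the genotypes asked which receptor mRNAs differ with the Mef2c label. The fit ran over the 13879 genes that passed a filter on low counts, and 9 of the 10 receptor genes passed it; Htr1d did not. Of all tested genes, 37 (0.267%) were called at a Benjamini-Hochberg adjusted p under 0.05 by edgeR, 19 of them (0.137%) lower in the libraries labelled heterozygous. Of the 9 receptor genes 1 was called, Htr7, which was lower. Nothing is read from that count, since Htr7 put the family forward. An unadjusted p under 0.05 was found for 3 of the 9, namely Htr7, Htr1b and Htr1a, against 7.24% of all tested genes. Htr7 is among these 3 through the choice of the family, so nothing is read from this count either. The median log2 fold change was 0.001 over the 9 receptor genes, with 5 above 0 and 4 below, and -0.001 over all tested genes.

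Among the Gs-coupled receptors, Htr7 fell. It codes for 5-HT7, a receptor best known from thalamus, hypothalamus and hippocampus that is also present in cortex and is studied for circadian rhythm and mood. The gene (ENSMUSG00000024798.15, protein coding) lies on the minus strand of chromosome 19 from 35958734 to 36057507 in GRCm38, with 6 merged exon blocks and no exon base shared with another annotated gene. Htr7 had 120, 144, 127 and 207 reads in heterozygous replicates 1 to 4, against 257, 238, 217 and 214 reads in wild type replicates 1 to 4. Scaled, these were 7.11, 8.35, 7.89 and 11.6 CPM in the libraries labelled heterozygous and 14.96, 13.7, 12.4 and 13.0 CPM in those labelled wild type. All 4 heterozygous libraries lay below all 4 wild type ones, with heterozygous replicate 4 closest to them. Such an absence of overlap was found for 4.55% of all tested genes, with 2.38% lower and 2.16% higher in the libraries labelled heterozygous. Among the receptor genes it was found for Htr7 alone. The means were 8.74 ± 1.97 CPM in the libraries labelled heterozygous and 13.5 ± 1.09 CPM in those labelled wild type (SD, n = 4 each), a ratio of 0.646 and a log2 fold change of -0.64 ± 0.13 (SE). In bulk tissue, fewer cells that express a gene and less RNA per cell cannot be told apart.

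Since the genotypes did not overlap, the direction of Htr7 within each sex and run was fixed, and its size is given as a description. Males had 7.50 CPM in the libraries labelled heterozygous and 13.1 CPM in those labelled wild type, and females had 9.97 CPM with the heterozygous label and 14.0 CPM with the wild type label (means, n = 2 each). In the higher-numbered animals the means were 9.74 CPM for the heterozygous label and 12.7 CPM for wild type, and in the lower-numbered animals they were 7.73 CPM for the heterozygous label and 14.3 CPM for wild type. The genotype effect in males minus that in females was -0.32 ± 0.27 on the log2 scale (SE, 95% interval -0.88 to 0.24), with an adjusted p of 1 in the edgeR quasi-likelihood test. The genotype effect in the higher-numbered minus that in the lower-numbered animals was 0.50 ± 0.25 (SE, 95% interval -0.01 to 1.01), with an adjusted p of 0.999 in the same test, a comparison added after the data had been seen.

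The call of Htr7 depended on single libraries. It was kept without heterozygous replicate 4 (log2 fold change -0.78) or wild type replicate 4 (-0.71). It was lost when heterozygous replicate 1 (-0.58), replicate 2 (-0.58) or replicate 3 (-0.63) was left out, and likewise for wild type replicate 1 (-0.63), replicate 2 (-0.58) or replicate 3 (-0.64).

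The other Gs-coupled receptors did not pass the test. Htr6, whose product is found mainly on neuronal primary cilia, had 4.03, 4.18, 4.54 and 4.53 CPM in heterozygous replicates 1 to 4, against 5.06, 4.49, 6.24 and 4.61 CPM in wild type replicates 1 to 4. The groups overlapped narrowly, since wild type replicate 2 fell inside the heterozygous range. The log2 fold change was -0.24 ± 0.18 (SE, 95% interval -0.62 to 0.14; adjusted p 0.911 in the edgeR quasi-likelihood test), and without wild type replicate 3 it was -0.12. Htr4 was sparse, with 7 to 18 reads per library labelled heterozygous and 7 to 20 per library labelled wild type. Its log2 fold change of -0.14 ± 0.43 (SE) had a 95% interval from -1.02 to 0.74, so at this depth a change in either direction was not detectable unless it was large.

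**Figure D2:**
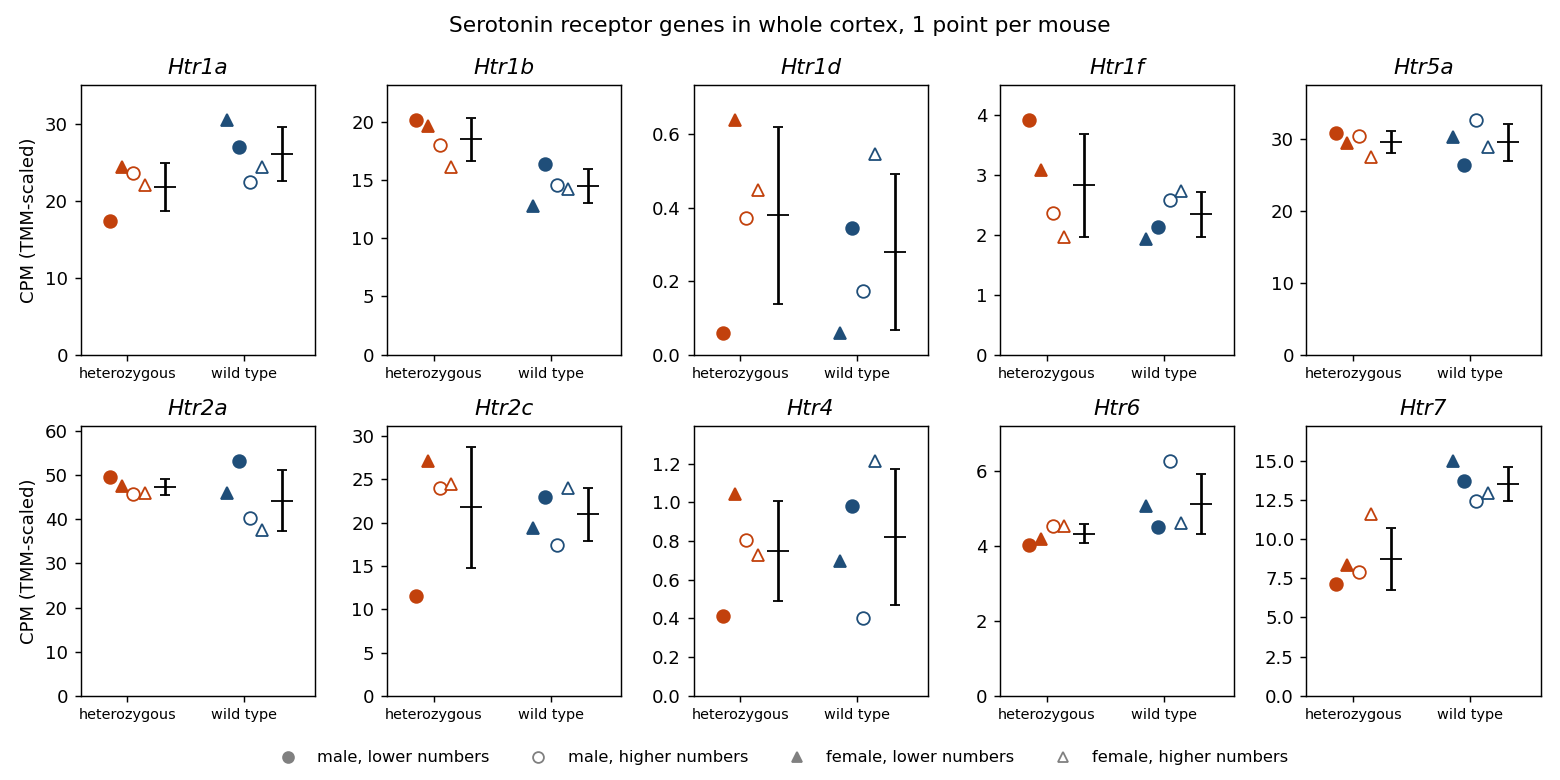
CPM of the 10 serotonin receptor genes, 1 point per mouse, with libraries labelled heterozygous left (orange) and wild type right (blue); circles are males, triangles females, filled points the lower-numbered and open points the higher-numbered animals, and the bars give the mean ± SD of 4 libraries. The genotypes do not overlap for Htr7 (at most 11.6 CPM in the libraries labelled heterozygous, at least 12.4 CPM in those labelled wild type), and they overlap for the other 9.

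Among the Gi-coupled receptors, the largest difference was that of Htr1b, which codes for an autoreceptor and heteroreceptor on axon terminals. Htr1b had 20.1, 19.7, 18.02 and 16.1 CPM in heterozygous replicates 1 to 4, against 12.8, 16.4, 14.6 and 14.2 CPM in wild type replicates 1 to 4. Heterozygous replicate 4 lay just below wild type replicate 2, and all other heterozygous libraries lay above all wild type ones. The log2 fold change was 0.35 ± 0.11 (SE, 95% interval 0.13 to 0.57), with an unadjusted p of 0.00329 and an adjusted p of 0.240 in the edgeR quasi-likelihood test, so it did not pass. The log2 difference of Htr1b between the genotype means was 0.29 in males, 0.39 in females, 0.23 in higher-numbered and 0.45 in lower-numbered animals. The gene lies on chromosome 9 from 81628291 to 81633828, and 852 of its exon bases are shared with D430036J16Rik on the opposite strand. The strand setting of the counting is not given in the sources used here, so reads of that transcript could be counted as Htr1b.

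Htr1a codes for the inhibitory receptor of cortical and hippocampal neurons that also serves as autoreceptor in the raphe. It had 17.4, 24.4, 23.6 and 22.0 CPM in heterozygous replicates 1 to 4, against 30.5, 27.0, 22.5 and 24.4 CPM in wild type replicates 1 to 4. The log2 fold change was -0.26 ± 0.11 (SE, 95% interval -0.48 to -0.04; unadjusted p 0.0252, adjusted p 0.561 in the edgeR quasi-likelihood test). The difference lay mostly in the lower-numbered animals, where the means were 20.9 CPM for the heterozygous label and 28.7 CPM for wild type. In the higher-numbered animals they were 22.8 CPM for the heterozygous label and 23.4 CPM for wild type. The test of that difference between runs gave 0.43 ± 0.20 (SE, 95% interval 0.03 to 0.83) with an adjusted p of 0.999 in the edgeR quasi-likelihood test.

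Htr5a, the gene of a Gi-coupled receptor found mainly in the brain, had the genotype fold change nearest to 1 of the 9 tested genes. It had 30.9, 29.4, 30.5 and 27.5 CPM in heterozygous replicates 1 to 4, against 30.3, 26.4, 32.7 and 28.8 CPM in wild type replicates 1 to 4. The log2 fold change was 0.001 ± 0.085 (SE) with a 95% interval from -0.18 to 0.18. Htr1f, the gene of a receptor targeted by migraine drugs, had 3.91, 3.07, 2.36 and 1.96 CPM in heterozygous replicates 1 to 4, against 1.92, 2.13, 2.58 and 2.73 CPM in wild type replicates 1 to 4. Its log2 fold change of 0.27 ± 0.26 (SE) had an interval from -0.28 to 0.82, and without heterozygous replicate 1 it was 0.071. Htr1d, also a receptor of axon terminals and a target of the triptans, had 1 to 11 reads per library labelled heterozygous and 1 to 9 per library labelled wild type and was too low to be tested. It was also the gene closest to the 10-read limit, since 1 of its libraries, heterozygous replicate 2, reached 11 reads.

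The Gq-coupled receptors showed no difference that passed the test. Htr2a, whose product is the main target of psychedelic drugs and is enriched in cortical pyramidal cells, had 49.6, 47.5, 45.7 and 45.9 CPM in heterozygous replicates 1 to 4, against 45.9, 53.1, 40.3 and 37.6 CPM in wild type replicates 1 to 4. Htr2a had a log2 fold change of 0.10 ± 0.09 (SE, 95% interval -0.08 to 0.28; adjusted p 0.949 in the edgeR quasi-likelihood test). Htr2c, on the X chromosome and known for the editing of its mRNA, had 11.6, 27.1, 24.0 and 24.5 CPM in heterozygous replicates 1 to 4, against 19.4, 23.0, 17.4 and 24.0 CPM in wild type replicates 1 to 4. Heterozygous replicate 1 was the lowest of all 8 libraries. The log2 fold change of Htr2c was 0.04 ± 0.24 (SE) and 0.25 without heterozygous replicate 1, and it was not called with or without that library. Choroid plexus cells carry much Htr2c, and their marker Ttr stood at 1.19 ± 0.899 CPM in the libraries labelled heterozygous and 0.676 ± 0.517 CPM in those labelled wild type (SD, n = 4 each). The 11 choroid plexus markers summed to 275 to 342 CPM in the libraries labelled heterozygous and 324 to 362 CPM in those labelled wild type. Most of that sum was 1 gene, Enpp2, at 307 ± 31.9 CPM in the libraries labelled heterozygous and 333 ± 16.6 CPM in those labelled wild type (SD, n = 4 each). Of the 11 markers, 5 passed the filter on low counts, Enpp2 among them. The part of these markers in the Htr2c values was not tested.

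In sum over the 10 genes, receptor mRNA per length was 30.8 ± 1.18 CPM per kb in the libraries labelled heterozygous and 31.8 ± 1.54 in those labelled wild type (SD, n = 4 each). Gs-coupled receptors made up 14.8 ± 2.12% of this sum with the heterozygous label and 19.9 ± 1.06% with wild type, and the 2 ranges (13.2% to 17.9% and 18.4% to 20.9%) did not overlap. This share contains Htr7, the gene that chose the family, and so is no separate result. Htr7 alone accounted for 8.34 ± 1.87% in the libraries labelled heterozygous and 12.5 ± 0.659% in those labelled wild type. Gq-coupled receptors held 34.9 ± 0.457% and Gi-coupled receptors 50.3 ± 2.44% in the libraries labelled heterozygous, against 31.8 ± 2.75% and 48.4 ± 1.77% in those labelled wild type (SD, n = 4 each). The ranges of the Gq and Gi shares overlapped between the labels. Shares within a sum are tied to each other, so a smaller share of Htr7 raises those of the other genes.

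**Figure D3:**
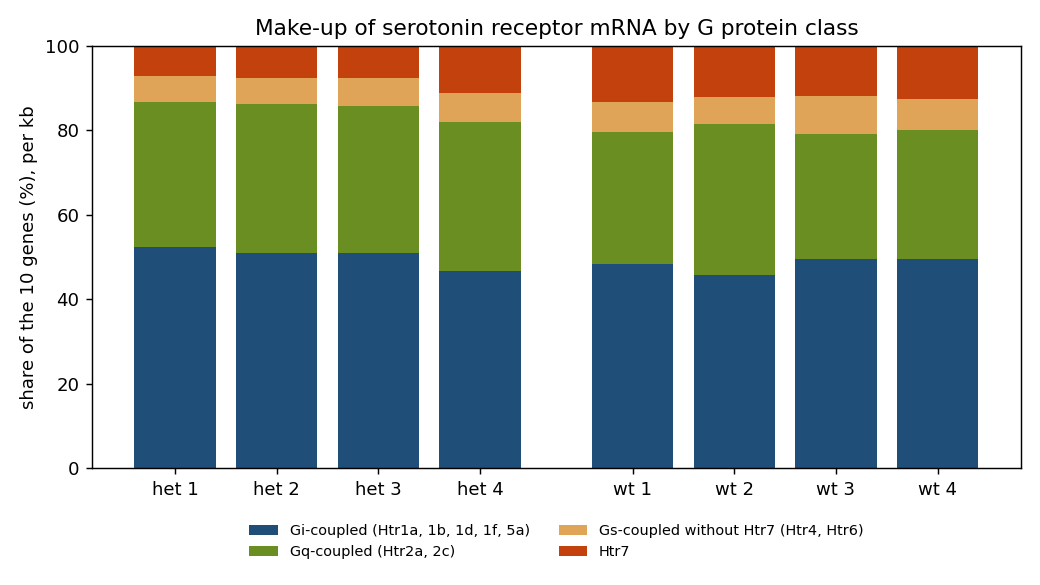
Share of each G protein class in the summed level per kb of the 10 serotonin receptor genes (percent), 1 bar per library, with libraries labelled heterozygous left (het) and wild type right (wt). The Htr7 segment averages 8.34% in the libraries labelled heterozygous and 12.5% in those labelled wild type.

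The sexes and the runs of animal numbers did not enter the choice of the genes. Between males and females, 0 of 9 receptor genes were called by the edgeR quasi-likelihood test, 0 had an unadjusted p under 0.05, and DESeq2 and limma-voom called 0 as well. Of all tested genes, 0.0288% were called, 2.92% had an unadjusted p under 0.05 and 1.97% did not overlap between the sexes, which held for 0 of the receptor genes. Htr7 had 10.3 ± 3.27 CPM in males and 11.97 ± 2.78 CPM in females (SD, n = 4 each), a log2 fold change of -0.24 ± 0.13 (SE, 95% interval -0.52 to 0.03; adjusted p 1.00). Htr2c had 19.0 ± 5.73 CPM in males and 23.7 ± 3.18 CPM in females (SD, n = 4 each), a log2 fold change of -0.32 ± 0.24 (SE). The interaction of genotype and sex was called for 0 of 9 receptor genes and for 0% of all tested genes by the edgeR quasi-likelihood test. None of the 9 had an unadjusted p under 0.05 there, against 2.64% of all tested genes, and DESeq2 and limma-voom called 0 of the 9.

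Between the runs of animal numbers, 0 of 9 receptor genes were called by the edgeR quasi-likelihood test, as by DESeq2 and limma-voom, against 0.382% of all tested genes by edgeR. At an unadjusted p under 0.05 there was 1 receptor gene, Htr2a, against 10.2% of all tested genes. The runs overlapped for every receptor gene, while they did not for 5.46% of all tested genes. Htr2a had 42.4 ± 4.13 CPM in the higher-numbered animals and 49.0 ± 3.13 CPM in the lower-numbered animals (SD, n = 4 each), a log2 fold change of -0.21 ± 0.07 (SE) with an adjusted p of 0.251 in the edgeR quasi-likelihood test. Htr7 had 11.2 ± 2.29 CPM in the higher-numbered animals and 11.03 ± 3.88 CPM in the lower-numbered animals (SD, n = 4 each), a log2 fold change of 0.06 ± 0.13 (SE, 95% interval -0.21 to 0.33).

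**Figure D4:**
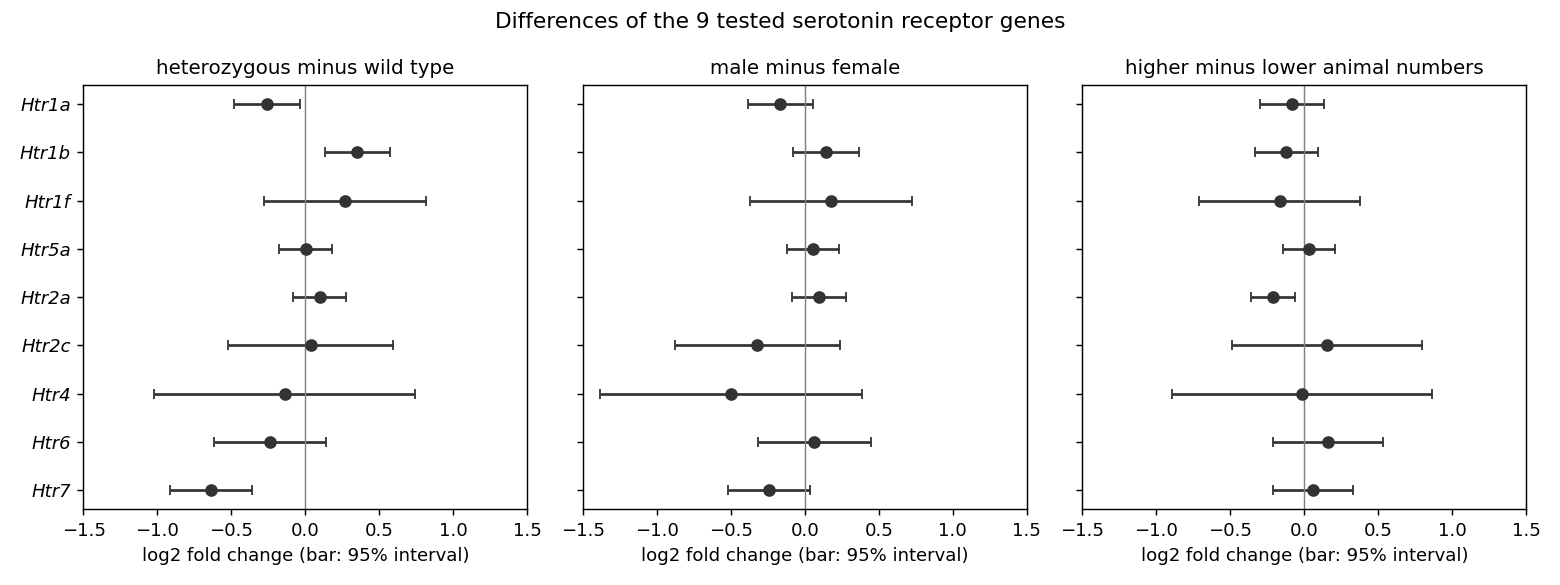
Log2 fold changes of the 9 tested serotonin receptor genes with 95% intervals, for heterozygous minus wild type labels (left), male minus female (middle) and higher-numbered minus lower-numbered animals (right). The genotype interval of Htr7 runs from -0.92 to -0.36, and Htr4 has the widest interval in each comparison.

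The remaining serotonin receptor genes were outside the list. Htr3a, a subunit of the ion channel receptor found in a class of interneurons, had 4.68, 6.56, 5.16 and 8.51 CPM in heterozygous replicates 1 to 4, against 5.12, 6.91, 5.38 and 6.12 CPM in wild type replicates 1 to 4. Its log2 fold change was 0.06 ± 0.18 (SE; adjusted p 0.997 in the edgeR quasi-likelihood test). Htr5b had 4 to 21 reads per library labelled heterozygous and 11 to 31 per library labelled wild type, with a log2 fold change of -0.30 ± 0.46 (SE). Htr2b reached at most 7 reads in a library, below the 10-read limit, and Htr3b had 0 reads in all 8, which allows up to 0.168 to 0.186 CPM per library at a limit of 3 reads.

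Genes of serotonin synthesis, transport and breakdown did not pass the test. Of 15 such genes, 12 were tested and 0 were called by edgeR, DESeq2 or limma-voom. Each tool gave 1 unadjusted p under 0.05, against 7.24% of all tested genes by edgeR. There were 6 log2 fold changes above 0, 6 below and a median of 0.03. The smallest p belonged to Maoa, the monoamine oxidase with a preference for serotonin, at 30.6 ± 2.79 CPM in the libraries labelled heterozygous and 25.6 ± 1.96 CPM in those labelled wild type (SD, n = 4 each). Its log2 fold change of 0.25 ± 0.09 (SE) had an adjusted p of 0.399 in the edgeR quasi-likelihood test. Pts, an enzyme of the cofactor that tryptophan hydroxylase needs, followed with -0.19 ± 0.11 (SE).

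Downstream of the receptors, the medians of the signalling lists stayed close to the median of all genes. By the edgeR quasi-likelihood test, 0 genes were called in each list. An unadjusted p under 0.05 was found there for 2 of 27 Gs, 2 of 11 Gi, 1 of 14 Gq and 1 of 18 partner genes, against 7.24% of all tested genes. The Gq gene is not among those named here. DESeq2 called Rgs4 and limma-voom called none of these genes. The median log2 fold change was 0.01 over 27 genes of Gs and cyclic AMP signalling, -0.02 over 11 of Gi signalling and GIRK potassium channels and 0.01 over 14 of Gq and phospholipase C signalling. Over 18 receptor partners, arrestins, kinases and editing enzymes it was 0.02. The Gi list summed to 2843 to 2932 CPM in the libraries labelled heterozygous and 2944 to 3000 CPM in those labelled wild type, without overlap. These sums contain Rgs4, at 702 CPM with the heterozygous label and 805 CPM with wild type, and were not taken without it. In the Gi list, 5 log2 fold changes lay above 0 and 6 below. The sums of the Gs, Gq and partner lists overlapped. Of the 11 Gi genes, 2 did not overlap between the genotypes, Rgs4 and Rgs7, against 4.55% of all tested genes. In the Gs list, the protein kinase A subunit gene Prkar1b had -0.12 ± 0.04 (SE) and the adenylyl cyclase gene Adcy8 -0.24 ± 0.09 (SE). Rgs4, which codes for a protein that shortens Gi and Gq signals, had 702 ± 25.8 CPM in the libraries labelled heterozygous and 805 ± 45.3 CPM in those labelled wild type (SD, n = 4 each). Its groups did not overlap, and its log2 fold change of -0.20 ± 0.05 (SE) missed the threshold at an adjusted p of 0.0695 in the edgeR quasi-likelihood test. Rgs14 had 0.28 ± 0.09 (SE) and the protein kinase C gene Prkcb 0.09 ± 0.05 (SE), both on the log2 scale. Mpdz, a scaffold protein gene whose product binds 5-HT2C, had -0.21 ± 0.08 (SE), and the receptor kinase gene Grk4 0.58 ± 0.30 (SE).

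**Figure D5:**
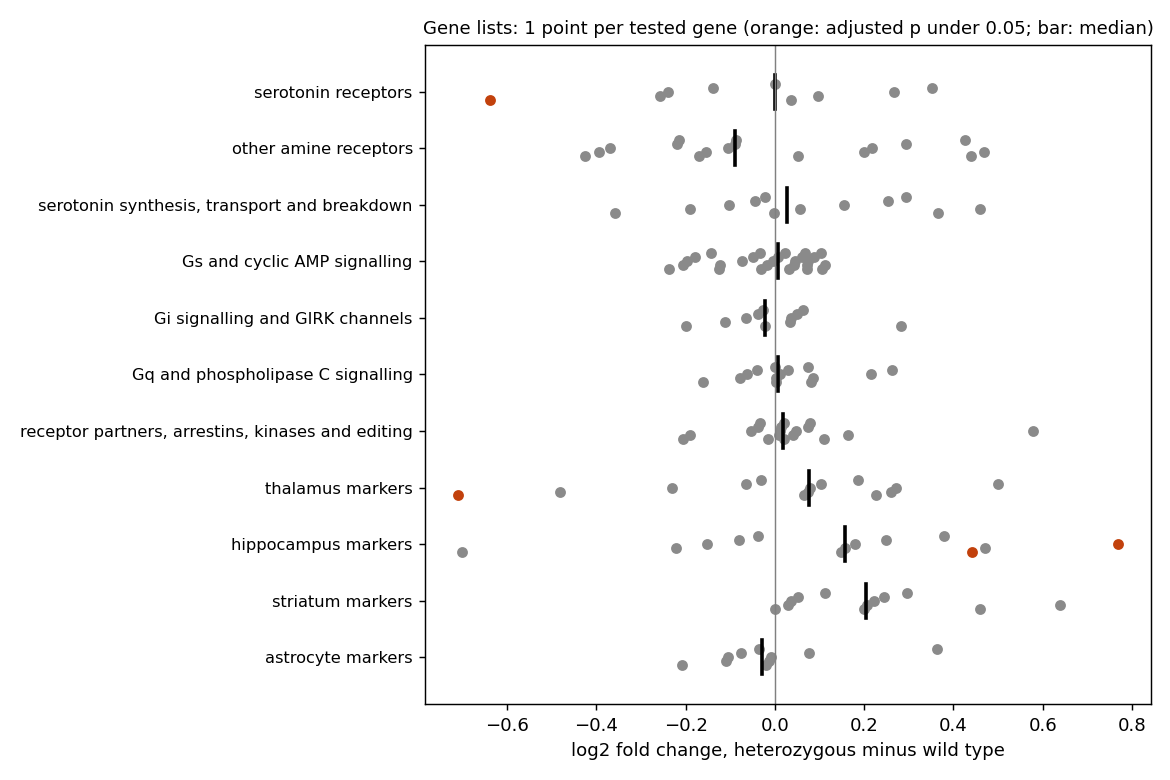
Log2 fold change (heterozygous minus wild type labels) of each tested gene of 11 lists, 1 point per gene, with called genes in orange and the list's median as a bar. Htr7 is the 1 called serotonin receptor gene, and the called genes of the other lists shown are Ramp3 (thalamus) and Wfs1 and Fibcd1 (hippocampus).

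Because Htr7 is also a gene of thalamus and hippocampus, markers of these regions were set beside it. Of 14 tested thalamus markers 1 was called, Ramp3, which codes for a partner of calcitonin-family receptors and had 9.94 ± 1.07 CPM in the libraries labelled heterozygous and 16.4 ± 3.39 CPM in those labelled wild type (SD, n = 4 each). The summed level of the 15 thalamus genes was 238.5 to 244 CPM in the libraries labelled heterozygous and 244 to 252 CPM in those labelled wild type. The list's median log2 fold change was 0.08. Gbx2 had 1 read in all and was not tested, while other thalamus markers were detected, with 4073 reads for Slc17a6, 1595 for Prkcd and 529 for Tcf7l2. Of 13 tested hippocampus markers 2 were called, both higher in the libraries labelled heterozygous: Fibcd1 at 17.7 ± 2.99 CPM, against 10.4 ± 0.976 CPM with the wild type label, and Wfs1 at 150 ± 16.6 CPM, against 111 ± 5.95 CPM (SD, n = 4 each). The hippocampus markers summed to 508 to 550 CPM in the libraries labelled heterozygous and 445 to 476 CPM in those labelled wild type, without overlap, and their median log2 fold change was 0.16. These sums contain the called Wfs1, the gene with the highest level in the list. Of the 13 tested, 8 log2 fold changes lay above 0 and 5 below. Of all tested genes, 0.267% were called by edgeR. The genotypes did not overlap for 1 of the 14 thalamus and 3 of the 13 hippocampus markers, against 4.55% of all tested genes. Npnt, a hippocampus marker that the edgeR test did not call, had 34.5 ± 5.75 CPM in the libraries labelled heterozygous and 56.0 ± 8.78 CPM in those labelled wild type (SD, n = 4 each), a log2 fold change of -0.70 ± 0.13 (SE; adjusted p 0.0692 in the edgeR quasi-likelihood test), and was called by DESeq2 and limma-voom. DESeq2 called 4 and limma-voom 3 of the hippocampus markers, and both called Ramp3 as the 1 thalamus marker. Over all tested genes, DESeq2 called 80 and limma-voom 32. Astrocyte markers summed to 4453 to 4758 CPM in the libraries labelled heterozygous and 4789 to 4833 CPM in those labelled wild type. The marker with the highest level was Slc1a2, at 2676 ± 144 CPM with the heterozygous label and 2821 ± 18.1 CPM with wild type (SD, n = 4 each). Of the 10 astrocyte markers 0 were called by edgeR, with 2 log2 fold changes above 0 and 8 below. The genotypes did not overlap for 1 of them, Gfap, which was higher with the heterozygous label (111 against 86.6 CPM). The part of these differences in the fall of Htr7 was not tested.

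By a fixed rule, the genes with the profile most like that of Htr7 over the 8 libraries were sought among 12861 genes by Pearson correlation of log2 CPM. They were Nrsn1 (r = 0.98), Zfp738 (0.98), Gabrg3 (0.97), Dolk (0.97) and Etv4 (0.96), all with lower means in the libraries labelled heterozygous. Of these 5 genes, Nrsn1 was called, with a log2 fold change of -0.28. After the genotype means were taken off, the closest were Mettl5 (r = 0.99), Dip2c (0.97), Tmed3 (0.97), Dhrs1 (0.97) and Mrpl57 (0.96). The 2 sets of 5 share no gene. These are the highest of many correlations over 8 libraries that share the genotype split, and they are given as a description without a test.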

How the data were processed

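Per the labels, 8 cortex libraries were made, 1 per mouse, and their deposited values are raw counts of reads for each gene symbol. The submitters' processing notes name STAR 2.5.2b, HTSeq and mm10, and the annotation and strand setting used for counting are not stated there. Groups follow the genotype labels. A minimum count of 10 in edgeR's filterByExpr left 13879 genes with 99.952% of all reads, and TMM scaled the libraries. Tests used edgeR 4.0.16 in R 4.3.3 (quasi-likelihood, robust) on genotype plus sex. Genes at a Benjamini-Hochberg adjusted p under 0.05 are said to be called. Further fits added the product of genotype and sex, or the run of animal numbers. Each SE is the absolute log2 fold change over the root of its F value. Log2 CPM values outside the fit carry a pseudocount of 0.5 CPM. The genotype fit was tested on simulated counts, and the other fits were not.

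Levels per kb use merged exons of GENCODE release M21 (GRCm38), to which 19856 of 22000 rows were matched by symbol. The receptor genes and all gene lists were chosen with earlier results of these data known. Named genes are the 10 receptor genes, Mef2c, the called members of each other list or up to 2 with the smallest p where none was called, and the 5 genes most like Htr7 by either correlation. Other genes named were singled out after their values were seen. Alternatives were other scalings (DESeq2 1.42.0 size factors, upper quartile), filters, tests (DESeq2, limma-voom 3.58.1) and covariates, subsets, and each library left out. Replicates differed by more than sampling noise (lowest chi-square per degree of freedom 4.14). Limits on 0 reads cover counting error only. Some genes and 1 signalling list are not reported here.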

Additional observations from a re-analysis of the deposited data

Results flagged for a closer look

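Htr1f differed in opposite directions in the 2 runs of animal numbers, which put it here. In the lower-numbered animals it had 3.91 and 3.07 CPM in the libraries labelled heterozygous, against 1.92 and 2.13 CPM in those labelled wild type, a log2 difference of 0.65. In the higher-numbered animals it had 2.36 and 1.96 CPM in the libraries labelled heterozygous, against 2.58 and 2.73 CPM in those labelled wild type, a log2 difference of -0.25. There were 2 libraries per genotype in each run, and the directions are what put the gene here, so they are no test. A fit with an interaction of genotype and run, added after the data had been seen, gave a difference between the runs (higher-numbered minus lower-numbered animals) of -1.08 ± 0.49 (SE, 95% interval -2.09 to -0.07; unadjusted p 0.0376, adjusted p 0.999 in the edgeR quasi-likelihood test), so it did not pass. Htr1f had 33 to 66 reads per library.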

How the results depend on the processing

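The count of called genes, 37 in the main test, was 82 without a filter on low counts, 80 with the DESeq2 Wald test and 72 with the run of animal numbers as a further term. Of the 8 alternatives that changed the scaling, filter, test or covariates, 7 called Htr7, with log2 fold changes from -0.64 to -0.63, and limma-voom (-0.64) did not, which left 0 called receptor genes. It was called in the lower-numbered animals alone (-0.89), but not in males alone (-0.80), females alone (-0.48) or the higher-numbered animals alone (-0.40), fits of 4 libraries each. With each library left out in turn, the count of called genes ranged from 19 (without wild type replicate 2) to 80 (without heterozygous replicate 1), with 23 without wild type replicate 1 and 24 without heterozygous replicate 2, and that of called receptor genes from 0 to 1. Htr7 ranged on the log2 scale from -0.78 to -0.58. The same fits gave medians from -0.13 to 0.11 for serotonin receptors, -0.16 to -0.078 for other amine receptors, -0.044 to 0.018 for Gi signalling, 0.034 to 0.15 for interneurons of the Htr3a class, 0.052 to 0.12 for thalamus and 0.10 to 0.24 for hippocampus markers. Without a filter, the median of the serotonin synthesis, transport and breakdown list was 0.15. Other receptor genes were fitted under up to 16 alternatives, not in the subsets of 4 libraries, and had no call for genotype there. With a library left out, their genotype log2 fold changes ranged from -0.34 to -0.17 for Htr1a, 0.28 to 0.40 for Htr1b, 0.071 to 0.41 for Htr1f, 0.030 to 0.19 for Htr2a, -0.13 to 0.25 for Htr2c, -0.33 to 0.11 for Htr4, -0.069 to 0.055 for Htr5a and -0.31 to -0.12 for Htr6. No receptor gene was called for sex, run of animal numbers or the interaction of genotype and sex under the alternatives fitted for these. With the stricter filter Htr4 was not tested. Depth limits Htr1d, Htr4, Htr2b and Htr5b.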

Other observations

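Receptors of other amines, set beside the serotonin receptors as the most similar family, were also split in direction. Of 22 such genes 17 were tested and 0 were called in the edgeR quasi-likelihood test or by limma-voom, while DESeq2 called Adra1b and Adra2c. By edgeR, 6 of the 17 had an unadjusted p under 0.05, against 7.24% of all tested genes. There were 7 log2 fold changes above 0, 10 below and a median of -0.09. In 6 of the 17 (35.3%) the genotypes did not overlap, against 4.55% of all tested genes, and 4 of these were lower and 2 higher in the libraries labelled heterozygous. The adrenergic receptor gene Adra1b had 24.5, 23.6, 25.4 and 26.5 CPM in heterozygous replicates 1 to 4, against 31.2, 33.8, 33.4 and 30.8 CPM in wild type replicates 1 to 4, with an adjusted p of 0.0543 in the edgeR quasi-likelihood test. The histamine receptor genes Hrh1 and Hrh2 had log2 fold changes of -0.39 ± 0.10 (SE) and -0.43 ± 0.11 (SE), and the muscarinic receptor gene Chrm3 -0.21 ± 0.06 (SE). In the other direction, Adra2c, the gene of a Gi-coupled adrenergic receptor, had 21.6, 23.7, 22.0 and 18.1 CPM in heterozygous replicates 1 to 4, against 15.2, 13.9, 15.7 and 16.8 CPM in wild type replicates 1 to 4, with an adjusted p of 0.0677 in the same test. Chrm2 had a log2 fold change of 0.29 ± 0.10 (SE). These genes did not pass the threshold in the edgeR test, and the difference between this family and the serotonin receptors was not tested.

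Other marker lists had no gene called by edgeR. An unadjusted p under 0.05 was found there for 3 of 10 cortical neuron, 4 of 10 interneuron and 1 of 12 striatum markers. It was also found for 2 of 10 astrocyte, 1 of 10 oligodendrocyte and 3 of 9 microglia markers. The share among all tested genes was 7.24%. DESeq2 called Neurod6 and Lamp5 among them, and limma-voom called none. The genotype medians were 0.09 for cortical neurons, 0.08 for interneurons of the Htr3a class, 0.20 for striatum, 0.20 for choroid plexus, -0.002 for raphe serotonin neurons, -0.03 for astrocytes, 0.003 for oligodendrocytes, 0.14 for microglia and -0.10 for endothelial cells. The choroid plexus median rests on 5 tested genes of 11, and the raphe median on 3 of 8. Leaving out 1 library moved the median to between 0.042 (without heterozygous replicate 1) and 0.29 (without heterozygous replicate 4) for striatum, 0.076 (without heterozygous replicate 4) and 0.29 (without heterozygous replicate 1) for choroid plexus, -0.12 and 0.073 for raphe serotonin neurons, -0.097 and 0.083 for oligodendrocytes, and -0.17 (without heterozygous replicate 1) and 0.032 (without heterozygous replicate 3) for endothelial cells. The interneuron marker Lamp5 had 201 ± 6.51 CPM in the libraries labelled heterozygous and 242 ± 23.5 CPM in those labelled wild type (SD, n = 4 each), with an adjusted p of 0.0607 in the edgeR quasi-likelihood test.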
